A study of Mus musculus with 4 samples.

Results

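Amacrine and horizontal cells are the inhibitory interneurons of the retina, and 10 genes of these cells were compared between objective and subjective day in whole posterior eyes. The genes were chosen by name from the deposited table of 22863 genes: *Gad1*, *Gad2*, *Slc32a1*, *Slc6a9*, *Chat*, *Pax6*, *Calb1*, *Calb2*, *Lhx1* and *Gja10*. All 10 were listed, each once, and all 10 had values high enough to be tested. The study used C3H/f+/+ mice, a strain that makes melatonin and does not carry the *Pde6b* mutation of the original C3H strain and dealt with the control of rod dark adaptation by the clock and by light. Subjective day eyes came from mice that had been in darkness since at least the previous evening and were collected at noon of circadian time. Objective day eyes came from mice that had seen light in the morning, were dark-adapted for an hour and were collected at noon. Mice of both groups had been entrained to a light-dark cycle and carried no engineered allele or drug treatment, and the age of the sequenced mice is not given in the sources used here. Each condition had 2 samples, and each sample pooled 4 eyes of a female and a male mouse and held the retina with RPE, choroid and sclera of the back of the eye, the front and the lens having been cut away.

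As background, horizontal cells contact photoreceptor terminals in the outer retina and feed signals back to them, while amacrine cells shape the output of bipolar and ganglion cells in the inner retina. Most amacrine cells release either GABA or glycine, and starburst amacrine cells release both GABA and acetylcholine and provide the direction-selective input to ganglion cells. The genes fall by role into those for making, packaging and taking up transmitter (*Gad1*, *Gad2*, *Slc32a1*, *Slc6a9* and *Chat*), transcription factors (*Pax6* and *Lhx1*), calcium-binding proteins (*Calb1* and *Calb2*) and a gap junction protein (*Gja10*).

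The authors deposited gene counts brought to one library size, which summed to between 33278417 and 35236783 in the 4 samples, and the sequencing depth itself is unknown. The test took in the 17784 genes that reached 10 in 2 or more samples. Differences are given as log2 fold changes of objective over subjective day on a log2(value + 1) scale with 95% intervals, from limma with Benjamini-Hochberg adjustment over all genes tested. With 2 samples against 2, the smallest p that an exact two-sided permutation test can give is 0.333, and the calls therefore depend on limma's shared estimate of the spread. The markers of the eye's other tissues did not all keep their level. In objective day, 5 of 6 tested ocular surface genes fell in limma's test, both as deposited and with each sample's trend with GC content removed, and the summed value of the list was 11527 and 12038 in subjective day against 3563 and 6073 in objective day, while *Krt12*, the keratin of corneal epithelium, was between 1.78 and 12.5 throughout. Over all genes tested, 7.45% were lower and 1.06% higher. Of the RPE markers 2 of 7 fell as deposited and 0 passed in limma's test with the GC trend removed, where 2 had an unadjusted p under 0.05. Those that fell as deposited were *Rpe65* and *Ermn*. The paper also reports lower *Rpe65* in objective day by qRT-PCR in a separate set of replicates. Of the blood markers 1 of 3 rose in both fits, the summed blood list being at 1234 and 1395 for subjective day, against 1939 and 2198 for objective day. The summed lens list differed within conditions, at 35939 and 4256 for subjective day, against 41142 and 10304 for objective day.

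Of the 10 amacrine and horizontal cell genes, *Calb1* fell in objective day and the other 9 did not pass the adjusted p of 0.05. The call of *Calb1* was lost when the samples' trend with GC content was removed and when the variance prior was held constant. The share called was 10%, against 8.51% of all genes tested that differed in either direction, 7.45% that were lower and 1.06% that were higher. *Calb1* lost 39.3% of its level, while the estimates of the other 9 lay between -0.14 for *Gad2* and 0.16 for *Slc32a1* on the log2 scale. The samples of the 2 conditions did not overlap for 6 of the 10 genes, against 56.1% of all genes tested. The median log2 fold change of the 10 was 0.0068, beside 0.015 for all genes tested. For 8 of the 9 genes that did not pass, the whole 95% interval lay within 0.5 of zero on the log2 scale, *Gja10* being the exception.

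**Figure D1:**
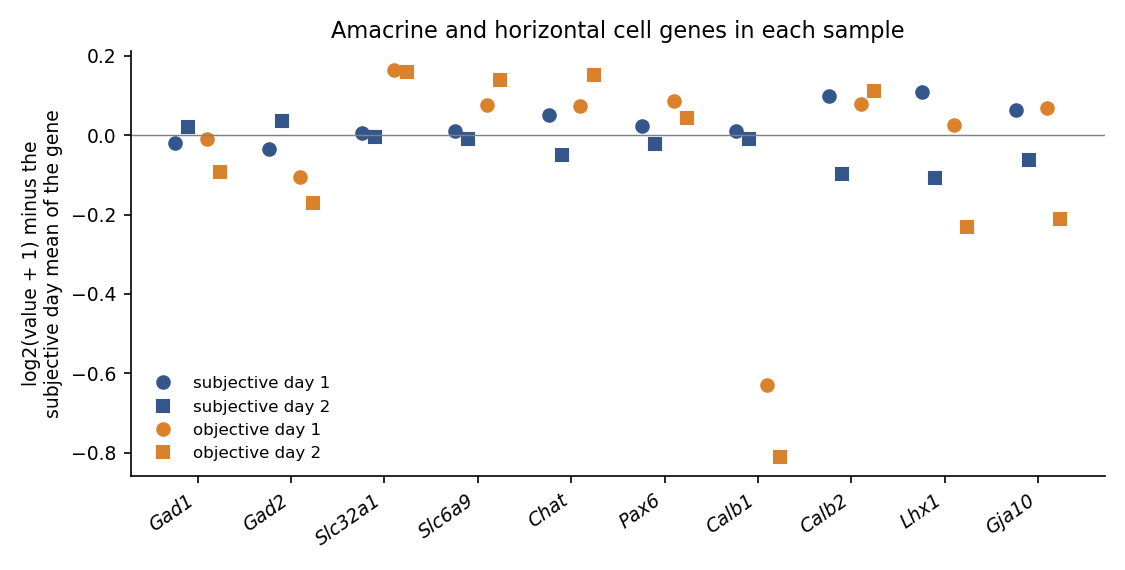
The log2(value + 1) of each gene in each of the 4 samples, minus the mean of its subjective day samples (blue: subjective day, orange: objective day, circles and squares: samples 1 and 2). Both objective day samples of *Calb1* lie far below zero, while the points of the other 9 genes stay near their subjective day mean.

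Glutamate decarboxylase makes GABA from glutamate in 2 forms, GAD67 and GAD65, encoded by *Gad1* and *Gad2*. *Gad1* (ENSMUSG00000070880) is found on chromosome 2 (GRCm38, 70553072 to 70602014, plus strand). It had values of 5523 and 5680 for subjective day, against 5561 and 5255 for objective day. The conditions overlapped, because the first objective day sample lay between the subjective day samples. Its log2 fold change was -0.051 (95% interval -0.19 to 0.092, limma adjusted p of 0.651). *Gad2* (ENSMUSG00000026787), also on chromosome 2, from 22622205 to 22693874, had values of 1875 and 1970 for subjective day, against 1787 and 1707 for objective day. Both objective day samples were the lower ones, by a log2 fold change of -0.14 (95% interval -0.29 to 0.013, limma adjusted p of 0.232). Within the 4 samples *Gad2* amounted to between 32.1% and 34.7% of the *Gad1* value, and the difference of this share between conditions was not tested.

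*Slc32a1* encodes VGAT, the transporter that loads both GABA and glycine into synaptic vesicles. The gene (ENSMUSG00000037771, chromosome 2 from 158610767 to 158615748, plus strand) had values of 3278 and 3254 for subjective day, against 3659 and 3646 for objective day. The samples of each condition were close together and both objective day samples were higher. The difference was a log2 fold change of 0.16 (95% interval 0.029 to 0.29), with an adjusted p of 0.129 from limma's test, so that it did not pass over all genes. Relative to *Gad1*, *Slc32a1* was at 59.4% and 57.3% in subjective day and at 65.8% and 69.4% in objective day. It shares 697 exonic bases with the antisense gene *Gm14205*, whose values were between 0 and 3.82 in the 4 samples.

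*Slc6a9* encodes GLYT1, the glycine transporter of the plasma membrane, which in the retina marks glycinergic amacrine cells and is also made by glial cells. *Slc6a9* (ENSMUSG00000028542, chromosome 4 from 117834506 to 117875198, plus strand) had values of 4581 and 4515 for subjective day, against 4794 and 5009 for objective day. The 2 objective day samples were higher, with a log2 fold change of 0.11 (95% interval -0.030 to 0.25, limma adjusted p of 0.302). The gene shares 1429 exonic bases with *Ccdc24* on the opposite strand, and the strand setting of the counting is not given in the sources used here, so its value is uncertain by reads of that gene. *Ccdc24* itself had values of 752 and 852 for subjective day, against 862 and 900 for objective day.

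*Chat* encodes choline acetyltransferase, which in the retina marks starburst amacrine cells. *Chat* (ENSMUSG00000021919, chromosome 14 from 32408203 to 32465989, minus strand) had values of 308 and 287 for subjective day, against 313 and 330 for objective day. Both objective day samples were above the subjective day samples, the nearest of them by less than the gap between the subjective day samples. It had a log2 fold change of 0.11 (95% interval -0.13 to 0.36, limma adjusted p of 0.545). *Chat* was at 5.57% and 5.06% of the *Gad1* value in subjective day and at 5.63% and 6.28% in objective day.

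*Pax6* is a homeodomain transcription factor that specifies the eye and remains active in mature amacrine, horizontal and ganglion cells, and also in lens and corneal epithelium. *Pax6* (ENSMUSG00000027168, chromosome 2 from 105668900 to 105697364, plus strand) had values of 9833 and 9525 for subjective day, against 10279 and 9967 for objective day. The values of the 4 samples differed little, with a log2 fold change of 0.065 (95% interval -0.080 to 0.21, limma adjusted p of 0.559). The summed lens list and *Pax6* were both higher in the first sample than in the second within each condition, and the part of lens and ocular surface tissue in the *Pax6* values was not tested.

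*Lhx1* encodes a LIM homeodomain factor that places horizontal cells in their layer. The gene (ENSMUSG00000018698, chromosome 11 from 84518284 to 84525535, minus strand) had values of 211 and 181 for subjective day, against 199 and 166 for objective day. The conditions overlapped, and the difference within each condition was larger than that between their means. Its log2 fold change was -0.10 (95% interval -0.45 to 0.25, limma adjusted p of 0.713).

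*Gja10* encodes connexin-57, the protein of the gap junctions that couple horizontal cells to each other. *Gja10* (ENSMUSG00000051056, chromosome 4 from 32596960 to 32602760, minus strand) had the lowest values of the 10 genes, 50.9 and 46.6 for subjective day, against 51.1 and 42.0 for objective day. The objective day samples were the highest and the lowest of the 4. The log2 fold change was -0.071 with a wide 95% interval from -0.61 to 0.46 (limma, adjusted p = 0.879). Changes of *Gja10* within this interval are not excluded by these samples.

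Calbindin and calretinin, encoded by *Calb1* and *Calb2*, are related EF-hand proteins that buffer calcium. In the mouse retina calbindin is a standard marker of horizontal cells and is also found in some amacrine and ganglion cells, and calretinin marks amacrine cells, among them AII cells, and ganglion cells. *Calb1* (ENSMUSG00000028222) is found on chromosome 4 (15881264 to 15908064, plus strand). It had values of 1319 and 1301 for subjective day, against 847 and 747 for objective day. The subjective day samples were nearly equal, and the higher objective day sample was still well below them. *Calb1* fell by 0.72 on the log2 scale (95% interval -0.91 to -0.53, standard error 0.082, limma adjusted p of 0.00558). It passed with any 1 sample left out, at a log2 fold change between -0.81 and -0.63, but did not pass with the GC trend removed (-0.052, limma adjusted p of 0.872) or with a constant variance prior (adjusted p = 0.126). Among the 17784 genes tested, 712 (4.00%) had a lower log2 fold change than *Calb1*. In tissue of mixed cell types, fewer *Calb1*-expressing cells and less *Calb1* RNA per cell cannot be told apart.

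*Calb2* (ENSMUSG00000003657, chromosome 8 from 110137502 to 110168210, minus strand) had values of 8636 and 7527 for subjective day, against 8506 and 8712 for objective day. The first objective day sample lay between the subjective day samples, so the conditions overlapped. Its log2 fold change was 0.095 (95% interval -0.090 to 0.28, limma adjusted p of 0.498). The *Calb1* value was 15.3% and 17.3% of the *Calb2* value of the same sample in subjective day, but 9.96% and 8.57% in objective day. Set against *Prox1*, a homeodomain factor of horizontal cells, AII amacrine cells and some bipolar cells, *Calb1* was at 19.8% and 19.1% in subjective day and at 12.4% and 11.5% in objective day. Both ratios carry the *Calb1* value itself, so their difference between conditions follows from its fall and is no further evidence of it. The ratios were described after the values were seen. Of the other horizontal cell genes, *Lhx1*, *Gja10*, *Onecut1*, *Onecut2* and *Prox1* did not pass, with log2 fold changes from -0.47 for *Onecut2* (limma, adjusted p = 0.122) to 0.17 for *Onecut1* (adjusted p = 0.476), which shares 2171 exonic bases with a non-coding gene on the same strand. The part of the ocular surface, RPE and blood differences in the fall of *Calb1* was not tested.

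**Figure D2:**
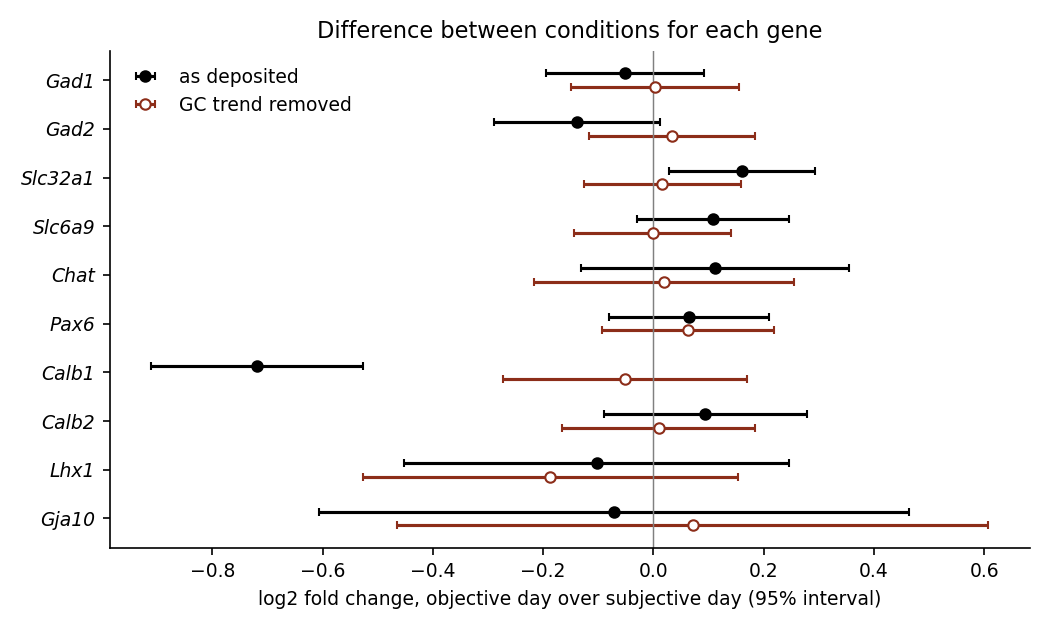
The log2 fold change of objective over subjective day for each gene with its 95% interval from limma, for the values as deposited (filled) and with each sample's trend with GC content removed (open). As deposited, *Calb1* lies at -0.72 and *Slc32a1* at 0.16, and with the trend removed the intervals of all 10 genes include zero.

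The order of the 10 log2 fold changes largely followed the GC content of the transcripts. *Calb1* had the lowest GC content of the 10, 36.8% in its longest transcript, and the lowest log2 fold change, while *Slc32a1* had the highest GC content, 61.9%, and the highest log2 fold change. Across the 10 genes the Spearman correlation of log2 fold change with GC content was 0.92, as a description of genes measured in the same 4 libraries, beside 0.58 across the 17536 tested genes of known GC content. The low GC content of *Calb1* came mainly from its 3′ untranslated region, which made up 3301 of 4222 bases of the transcript at 33.7% GC, whereas the coding part of 786 bases had 43.1%. *Calb2*, which did not pass, had 53.5% GC in a transcript of 1431 bases. Of the 276 tested genes with a GC content from 36% to 38%, the range that holds *Calb1*, 51.8% were called, and their median log2 fold change was -0.59. In the range from 60% to 62% that holds *Slc32a1*, the median of 450 genes was 0.15.

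After local regression had taken the GC trend out of every sample, 0 of the 10 genes passed in limma's test, against 1.20% of all genes, and the adjusted p values ran from 0.651 to 0.995. None of the 10 had an unadjusted p under 0.05 in that fit, against 13.5% of all genes. As deposited, 2 of the 10 had one, *Calb1* and *Slc32a1*, against 25.4% of all genes. The log2 fold change of *Calb1* in that fit had a 95% interval from -0.27 to 0.17, and that of *Slc32a1* was 0.016. *Lhx1* was then the lowest of the 10 with -0.19, and *Gja10* the highest with 0.071. Such a correction also takes out any difference between conditions that follows GC content, and as each library belongs to 1 condition, a GC trend of the libraries and one of the conditions cannot be told apart. With a constant variance prior in place of one that follows expression, limma called 0 of all genes, *Calb1* included, with 3586 at an unadjusted p under 0.05.

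**Figure D3:**
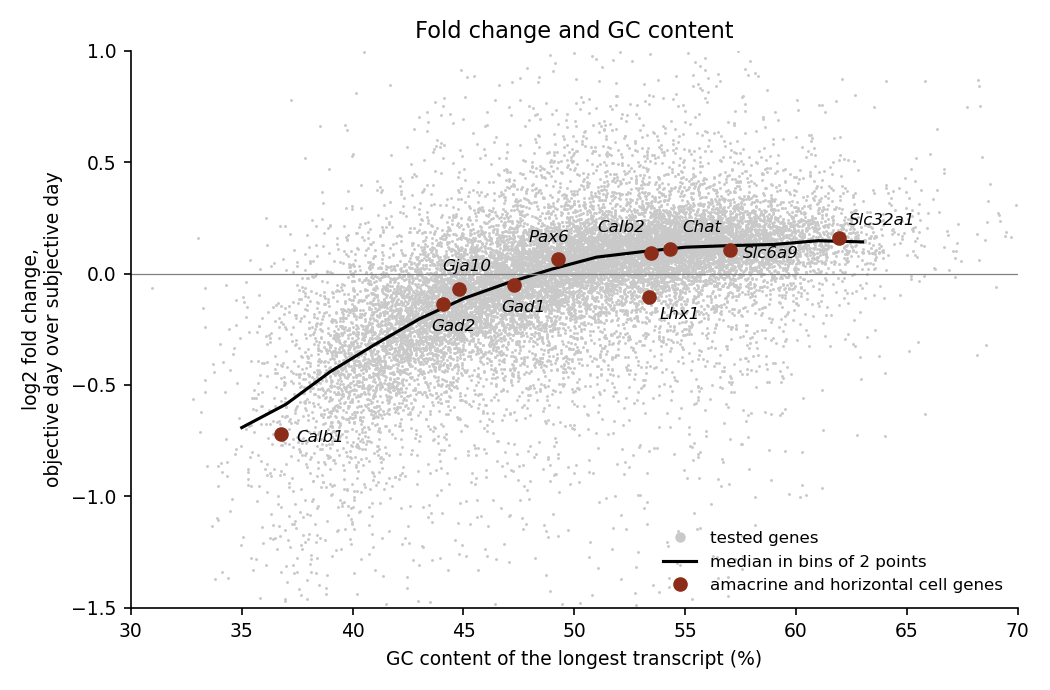
The log2 fold change of objective over subjective day against the GC content of the longest transcript for the tested genes (grey, 157 genes lie outside the axes), the median of all genes in bins of 2 percentage points (line) and the 10 amacrine and horizontal cell genes (red). The named genes lie near the line, *Calb1* at its lower left end and *Slc32a1* at its right end, and *Lhx1* lies farthest below it.

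The levels of the 10 genes per kilobase of annotated exon spanned 205-fold in subjective day. *Calb2* was the highest, at 4637 ± 450 (SD, n = 2) per kb in subjective day and 4939 ± 83.5 in objective day. *Slc32a1* followed at 1168 ± 6.07 and 1306 ± 3.26 per kb in subjective and objective day, then *Slc6a9* at 885 ± 9.11 and 953 ± 29.6, and *Pax6* at 828 ± 18.6 and 866 ± 18.8. *Slc6a9* and *Pax6* were the only neighbours in this order whose levels per kb overlapped among the 4 samples. *Gad1* came next at 733 ± 14.5 per kb in subjective day and *Gad2* at 327 ± 11.4, so that GAD67 message was the more abundant form per length. *Calb1* stood at 270 ± 2.67 per kb in subjective day and 164 ± 14.7 in objective day and kept its place between *Gad2* and *Chat* in both conditions. The lowest levels per kb in subjective day were those of *Chat* at 63.2 ± 3.07, *Lhx1* at 48.1 ± 5.17 and *Gja10* at 22.6 ± 1.41. These lengths take in every annotated exon, so the level per kb of a gene with many transcript forms may be understated. They are 11694 bases for *Pax6*, 7639 for *Gad1* and 5141 for *Slc6a9*. The longest transcripts of these genes have 4427, 3601 and 3479 bases, while for *Slc32a1* both lengths are 2797. The order of *Slc32a1*, *Slc6a9*, *Pax6* and *Gad1* therefore depends on the length used.

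**Figure D4:**
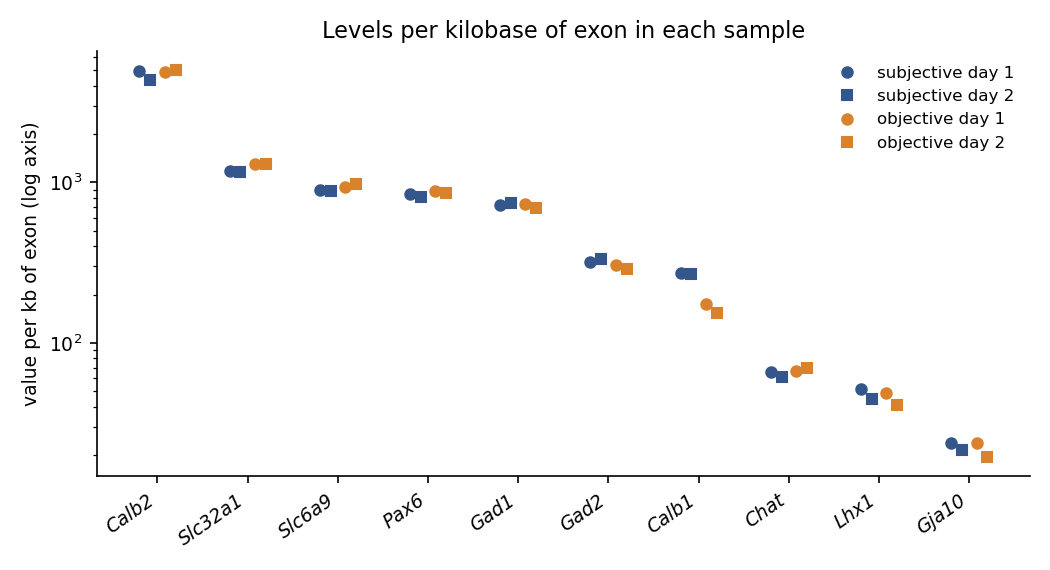
The value per kilobase of exon on a log axis for each gene in each sample, ordered by the subjective day mean (blue: subjective day, orange: objective day, circles and squares: samples 1 and 2). The 4 points of each gene lie together except for *Calb1*, whose objective day points are lower, and the order of the genes runs from *Calb2* to *Gja10*.

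The wider inhibitory and cholinergic pathways of the retina were followed in 8 further lists with 97 different genes, of which 94 were tested. In all, 20 of the 94 passed in limma's test, 14 lower and 6 higher in objective day, which is 21.3% against 8.51% of all genes tested. The 14 lower genes had a GC content between 35.3% and 45.7%, and the 6 higher genes between 51.5% and 56.0%. In the fit with the GC trend removed, 3 of the 94 passed, 1 of them among the 20. Many calls were lost with fewer samples, as 5 of the 20 genes passed without the first objective day sample, 3 without the second, 17 without the first subjective day sample and 14 without the second. Without a trend in the variance prior, limma called 0 of the 20. The lists were chosen with earlier results of these data known.

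Of 16 subunits of GABA receptors, 4 fell, 2 rose and 10 did not pass, with a median log2 fold change of -0.14. The 4 that fell are subunits of the ionotropic GABA-A receptor. *Gabrg1* had values of 187 and 197 for subjective day, against 109 and 99.4 for objective day, a log2 fold change of -0.88 (by limma, adjusted p = 0.0123). *Gabra4* fell by 0.70 on the log2 scale (adjusted p = 0.0207), from 222 and 241 to 135 and 149, and shares exonic bases with *Gabrb1* on the opposite strand. *Gabrb2* fell by 0.35 and *Gabra3* by 0.29 on the log2 scale. The 2 that rose are of other receptor kinds, *Gabrr2* of the GABA-C receptor of bipolar cells and *Gabbr2* of the metabotropic GABA-B receptor, with log2 fold changes of 0.29 (limma, adjusted p = 0.0444) and 0.30 (adjusted p = 0.0274). With the GC trend removed, 0 of the 16 passed in limma's test, 8 had an unadjusted p under 0.05 against 13.5% of all genes in that fit, and the median of the list was 0.075. *Gabra4* was the lowest of the 16 at -0.42 (limma, adjusted p = 0.19), and the highest of them was at 0.41.

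Of 4 genes for GABA uptake and breakdown, 0 passed in limma's test, and the median log2 fold change was 0.12. The largest difference was that of *Slc6a13*, encoding the transporter GAT2, with values of 1377 and 1158 for subjective day, against 1724 and 1543 for objective day (log2 fold change 0.37, limma adjusted p of 0.0645). *Slc6a11*, for the transporter GAT3, had the highest values, 8342 and 8103 for subjective day, against 9448 and 9574 for objective day, and was at 0.21 (limma, adjusted p = 0.0774). *Abat*, for the transaminase that breaks GABA down, was at 0.036 (adjusted p = 0.785). An unadjusted p under 0.05 was seen for 2 of the 4 genes, against 25.4% of all genes tested.

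Of 7 genes for glycine transmission, 2 fell and 5 did not pass, with a median of -0.11. *Glrb*, the beta subunit shared by synaptic glycine receptors, had values of 2142 and 2276 for subjective day, against 1487 and 1490 for objective day (log2 fold change -0.57, limma adjusted p of 0.00558). *Glra2*, an alpha subunit, fell by 0.42 on the log2 scale (adjusted p = 0.0423). After removal of the GC trend, neither *Glrb* at -0.20 nor *Glra2* at -0.078 passed. *Glra3* has 35.2% GC and near equal values of 558 and 556 for subjective day, against 535 and 552 for objective day. It did not pass as deposited but was called higher with the GC trend removed, at 0.77 (limma, adjusted p = 0.0218). *Glra3* was singled out after its values were seen.

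Of 15 tested genes for acetylcholine transmission, 1 fell and 1 rose, with a median of 0.14, and *Slc18a3*, the vesicular transporter gene within *Chat*, was not analysed here. *Slc5a7*, which encodes the choline transporter that feeds acetylcholine synthesis in starburst cells, had values of 405 and 365 for subjective day, against 246 and 255 for objective day. It fell by 0.62 on the log2 scale (limma, adjusted p = 0.0158), while *Chat*, made by the same neurons, did not pass. *Slc5a7* has 40.8% GC and *Chat* 54.3%, and with the GC trend removed *Slc5a7* was at -0.25 (limma, adjusted p = 0.422). *Chrnb4*, a nicotinic receptor subunit, rose by 0.57 on the log2 scale (adjusted p = 0.0358), from 164 and 183 to 268 and 247, and was at 0.51 with the GC trend removed (adjusted p = 0.126).

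Of 25 tested transcription factors of amacrine and horizontal cells, 5 fell and 0 rose, with a median of -0.10. They were *Six6* at -0.42, *Neurod4* at -0.39, *Nfib* at -0.27, *Isl1* at -0.26 and *Tcf4* at -0.25, with adjusted p values between 0.0101 and 0.0427 from limma's test. *Six6* shares 192 exonic bases with *4930447C04Rik* on the opposite strand, which fell by 1.55 on the log2 scale (limma, adjusted p = 0.00819), so the value of *Six6* is uncertain by its reads. *Neurod4* and *Isl1* are also active in bipolar cells, and *Isl1* in ganglion and starburst cells. In the fit with the GC trend removed, 0 of the 25 passed in limma's test, with 5 at an unadjusted p under 0.05 (13.5% of all genes had one), and *Neurod4* and *Tcf4* had positive log2 fold changes of 0.18 and 0.12.

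Of 14 genes of amacrine subtypes, 2 rose and 0 fell, with a median of 0.18. *Penk*, the precursor of enkephalins, had values of 614 and 617 for subjective day, against 966 and 848 for objective day (log2 fold change 0.56, limma adjusted p of 0.0114). *Nos1*, the neuronal nitric oxide synthase of a class of amacrine cells, rose by 0.39 on the log2 scale (adjusted p = 0.0158), from 1156 and 1110 to 1523 and 1447. Each shares exonic bases with a gene on the opposite strand, 233 for *Penk* and 268 for *Nos1*. The neighbour of *Penk*, *A830012C17Rik*, had values between 0 and 3.83 in the 4 samples. After removal of the GC trend, *Penk* was at 0.48 (limma, adjusted p = 0.0569) and *Nos1* at 0.30 (adjusted p = 0.0951). In that fit 6 of the 14 had an unadjusted p under 0.05 in limma's test, against 13.5% of all genes. *Vip* passed in the same fit, at 0.84 (limma, adjusted p = 0.0332). It has 38.7% GC and values of 207 and 229 for subjective day, against 246 and 298 for objective day. *Vip* was at 0.32 (adjusted p = 0.199) as deposited and was singled out after its values were seen.

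Of 9 further neuronal calcium-binding proteins, 2 fell, 1 rose and 6 did not pass. *Necab1* fell by 0.43 and *Vsnl1* by 0.38 on the log2 scale (adjusted p = 0.0262 and 0.0102 from limma's test), and they have 39.5% and 43.2% GC. *Necab1* shares 410 exonic bases with an antisense gene. *Hpcal1* had values of 1571 and 1451 for subjective day, against 2224 and 2210 for objective day, a log2 fold change of 0.55 (by limma, adjusted p = 0.00558). After removal of the GC trend *Hpcal1* was at 0.46 (adjusted p = 0.0265), and it was the 1 gene of the 97 that passed in the same direction in both fits. Of 5 tested gap junction and pannexin genes, 0 passed in limma's test and 2 had an unadjusted p under 0.05, against 25.4% of all genes tested. The largest difference was that of *Gja1*, connexin-43 of glia and RPE, at 0.36 on the log2 scale (adjusted p = 0.16), and *Gjd2*, connexin-36 of AII amacrine cells and photoreceptors, was at -0.022 (adjusted p = 0.866). The pannexin genes *Panx1* and *Panx2* were at 0.20 (limma, adjusted p = 0.337) and 0.14 (adjusted p = 0.192).

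**Figure D5:**
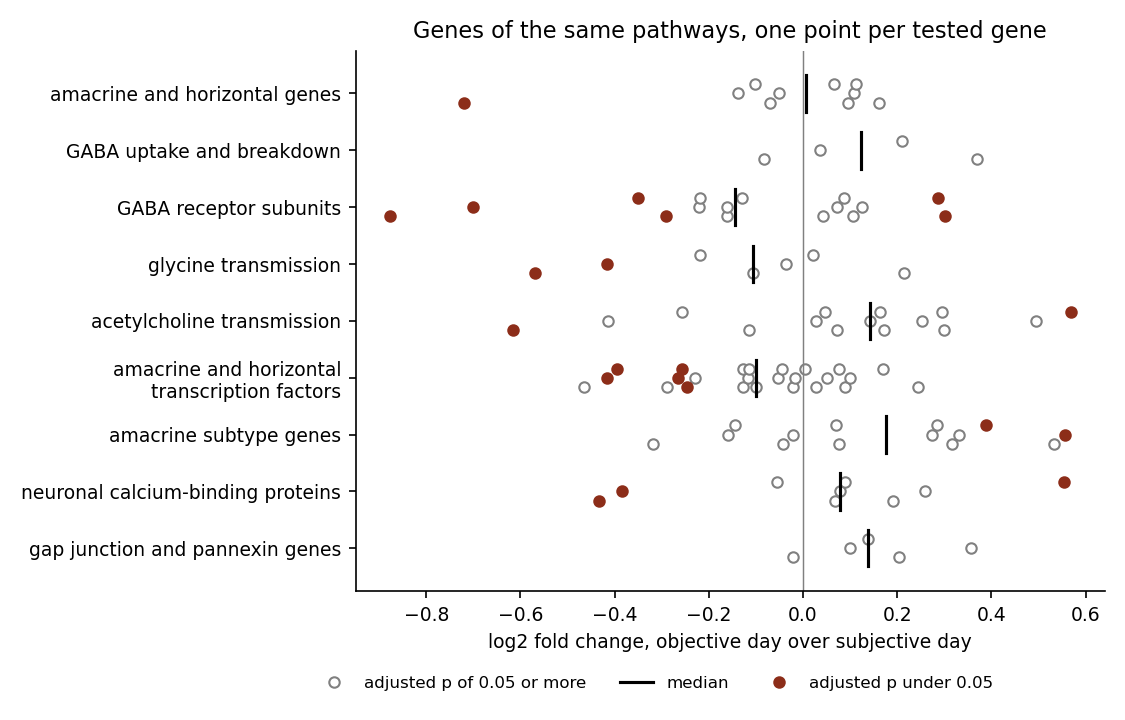
The log2 fold change of objective over subjective day of each tested gene in the 10 amacrine and horizontal cell genes and the 8 further lists (filled red: adjusted p under 0.05 from limma, open grey: not passed, black bar: median of the list). *Calb1* stands alone at -0.72 in the top row, and the GABA receptor subunits spread from -0.88 to 0.30.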

How the data were processed

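The RNA-seq of 2 subjective day and 2 objective day samples was analysed. According to the methods and the submitters' processing notes, reads were aligned with TopHat2 2.0.9 and Bowtie2 2.1.0 to an Ensembl annotation of GRCm38, counted per gene with HTSeq and compared with edgeR. The deposited values are a signal per gene and sample, gene counts that the authors brought to one library size (not whole numbers, with similar totals). The table's log2 fold change and log2 CPM columns and the deposited p-value columns hold the authors' own comparison and were not used. The filter and the strand setting are not given in the sources used here.

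Values were compared on log2(value + 1) with limma 3.58.1 under R 4.3.3, the variance prior following mean expression, for genes with at least 10 in at least 2 samples, and adjusted by Benjamini-Hochberg over all of them at 0.05. The script was tested on simulated data. The samples are biological replicates according to the methods. GC content and length come from the longest transcript in GENCODE M21 (GRCm38), known for 98.6% of genes tested, and the GC trend was removed by local regression with a span of 0.3. The 10 genes and all lists were chosen with earlier results of these data known. Some genes of the further lists are not reported here and were left out of their counts. All 10 genes were named, and of each further list the genes that passed, or otherwise the 2 with the largest difference and the 2 with the highest value. Outside this rule, *Glra3*, *Vip* and the markers in the closing section were named after their values were seen. The ratios between genes were likewise described after the values were seen. Also named outside the rule were *Onecut1*, *Onecut2* and *Prox1*, the tissue markers *Krt12*, *Rpe65* and *Ermn*, and genes that share exonic bases with a named gene. Alternatives covered scaling, filter, pseudocount, variance prior, replicate block, GC content, length and each sample left out. Figures were drawn with matplotlib 3.10.9.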

Additional observations from a re-analysis of the deposited data

How the results depend on the processing

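The count of 1 gene of the 10 (*Calb1*) was the same under 3 other scalings, 3 filters, 2 pseudocounts, removal of a trend with length and each sample left out. It was 0 with the GC trend removed, with or without the replicate block, and 0 without a trend in the variance prior. The replicate number was shared between conditions only as a label. Samples with the same number deviated together (correlation 0.32 across genes). Fitting that number as a replicate block, 2 of the 10 genes passed, *Slc32a1* in addition (adjusted p = 0.0434 from limma's test). Over all genes the block gave 3613 calls instead of 1514, removal of the GC trend 211, the fit without a variance trend 0, and the samples left out in turn between 664 and 2557. The 1514 calls split into 1325 lower and 189 higher, against 1240 and 443 with upper quartile scaling, 1040 and 571 with a length trend removed, 111 and 100 with the GC trend removed, and 712 and 914 when the block was added to that. The count over all genes was 2557 without the first subjective day sample, 736 without the first objective day sample and 664 without the second, where the lone sample of a condition is assumed to vary like the other condition.

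The median log2 fold change of the 10 genes was 0.065 with a filter of at least 100 in 2 samples, which left out *Gja10*. With samples left out it was between -0.025 and 0.071, and relative to all genes between -0.041 and 0.056. Of the 20 further genes that passed, 15 passed with the length trend removed, 17 with scaling to retinal markers, 18 without a filter, 20 with the block, and 1 with the GC trend removed but 9 when the block was added, *Gabrr2* and *Gabbr2* among them (adjusted p = 0.0280 and 0.0243 from limma's test). Among the 10 genes and these 20, removal of the GC trend, in both fits, changed the sign of the log2 fold change for *Gad1* (0.0027), *Gad2* (0.035), *Slc6a9* (-0.0015), *Gja10* (0.071), *Neurod4* (0.18), *Tcf4* (0.12) and *Necab1* (0.029), of which *Neurod4* passed with the block (adjusted p = 0.0292 from limma's test). *Glra3* and *Prox1*, which had not passed, went from -0.036 to 0.77 and from -0.016 to 0.10. The sign also changed for *Calb2* without the second subjective day sample (-0.0046), for *Lhx1* without the first subjective day sample (0.0064) or the second objective day sample (0.025), and for *Gja10* without the latter (0.068). With samples left out, these 3 genes ranged from -0.0046 to 0.19 (*Calb2*), -0.23 to 0.025 (*Lhx1*) and -0.21 to 0.068 (*Gja10*). The cause of these changes was not tested. Depth is unknown, and the widest interval of the 10 was that of *Gja10*, whose standard error was 3.73 times that of *Gad1*.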

Other observations

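Of 37 tested markers of the other retinal cells, 3 were called (8.11%), near the 8.51% of all genes tested. Of 8 rod, 7 cone and 8 ganglion cell markers, 0 passed in limma's test, with 2, 2 and 3 at an unadjusted p under 0.05 (25.4% of all genes had one) and median log2 fold changes of 0.16, 0.073 and 0.042. Of 8 bipolar cell markers, *Cabp5*, a calcium-binding protein of bipolar cells, fell by 0.31 on the log2 scale (limma, adjusted p = 0.0242), from 4252 and 4005 to 3327 and 3344. Of 6 Müller glia markers, 2 fell, the glutamate transporter gene *Slc1a3* by 0.34 and the water channel gene *Aqp4* by 0.44 on the log2 scale (adjusted p = 0.0166 and 0.00707 from limma's test). With the GC trend removed, 0 markers of the 5 cell types passed in limma's test, with 1 rod, 1 cone, 1 ganglion cell, 2 bipolar cell and 1 Müller glia marker at an unadjusted p under 0.05, which is 16.2% of the markers against 13.5% of all genes.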
